A study of Mus musculus with 28 samples.

Results

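Transcripts of macrophages, of microglia and of MHC class II were followed through RNA libraries of sorted Treg cells. The 37 genes were chosen by name from a list of myeloid and antigen presentation genes, with no measured value in the rule, and all 37 are among the 53801 features of the table. Of these, 33 are macrophage and microglia genes and 4 encode MHC class II proteins. The libraries are bulk Smart-Seq2 RNA-seq of TCR+ CD4+ CD25hi CD127lo cells, sorted with CD8+ cells in a dump channel, from mice that all carried CT2A, a murine GBM cell line, in the forebrain. Treatment with 4 doses of 250 µg per mouse, 3 days apart, began at a tumor size of 2 mm3, and tissue was taken 2 days after the last dose. There were 5 GBM Treg libraries after IgG2a, the control antibody, and 7 after αPD1 + αGITR, and 7 and 8 splenic Treg libraries after these treatments. The series text gives each spleen or tumor sample as taken from a different mouse, but some libraries of each tissue share a number and differ in its letter. The study's legend for its RNA-seq gives n = 5 after IgG2a and n = 7 after αPD1 + αGITR. These numbers equal those of the GBM libraries and are below those of the splenic libraries. Whether libraries that share a number are from separate mice was not settled, so p-values measure the spread between libraries, which may be technical in part. The labels give no age or sex for single libraries. Libraries are named as in their labels, where tumor stands for GBM.

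Macrophages digest what they take up in lysosomes, and for this they carry large amounts of cathepsin proteases and lysozyme. They also make complement C1q and the lipid carrier ApoE. Microglia are the resident macrophages of the brain and are told from macrophages that enter from the blood by genes such as Tmem119 and P2ry12. MHC class II molecules present peptides to CD4+ T cells and are made by B cells, dendritic cells and macrophages, while mouse T cells make little. Treg cells are not known as a source of C1q, lysozyme 2 or microglial receptors, but cathepsins and other lysosomal proteins are made by most cells. In bulk libraries RNA of other cells in the sort, RNA taken up by Treg cells and RNA made by them give the same reads, and these sources cannot be told apart here, nor can fewer cells of a type and less RNA per cell.

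The T cell genes Cd3e and Foxp3 were above 10 TPM in every library. Cd3e, a chain of the T cell receptor complex, ran from 135 to 684 TPM in the 12 GBM libraries and from 16.4 to 656 TPM in the 15 splenic libraries. Foxp3, the transcription factor that defines Treg cells, ran from 116 to 440 TPM in GBM and from 21.5 to 364 TPM in the spleen. Other T cell and Treg genes were near the floor in some splenic libraries. Il2ra, which encodes CD25, was at 9.02 TPM in spleen_79_a, Cd3d at 5.12 TPM in spleen_79_d and Ikzf2 at 3.53 TPM in spleen_72_b. The 10 genes of this list summed to as little as 277 TPM in the spleen and 1496 TPM in GBM. Features above 1 TPM numbered 7702 (tumor_369_a) to 17460 per library, with 10175 in the next lowest library, and the most abundant feature alone took 15.5% to 53.7% of a library's TPM. Read depth is unknown from these values.

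The upstream sequences shown here belong to members that illustrate the 3 patterns described further on. C1qb was high in 2 GBM libraries, Ctss was above 10 TPM in every GBM library, and H2-Aa and H2-Eb1 had their highest levels in splenic libraries. Each sequence is the 250 bases before the RefSeq start of the gene (GRCm38.p6), written 5′ to 3′ in the direction of the gene. H2-Aa lies on the minus strand with its window at chr17:34287824-34288073, H2-Eb1 on the plus strand at chr17:34305617-34305866, C1qb on the minus strand at chr4:136886201-136886450 and Ctss on the plus strand at chr3:95526536-95526785. Capitals mark the CCAAT box (CCAAT or ATTGG) in the H2 genes, where the inverted form ATTGG is known as the Y box of MHC class II promoters. In C1qb and Ctss they mark the core of the site of the macrophage factor PU.1 (GAGGAA or TTCCTC).
H2-Aa: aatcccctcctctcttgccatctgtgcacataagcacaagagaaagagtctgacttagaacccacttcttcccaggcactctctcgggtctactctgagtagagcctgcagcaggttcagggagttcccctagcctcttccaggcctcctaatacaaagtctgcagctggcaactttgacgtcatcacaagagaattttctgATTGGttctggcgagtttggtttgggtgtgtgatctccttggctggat
H2-Eb1: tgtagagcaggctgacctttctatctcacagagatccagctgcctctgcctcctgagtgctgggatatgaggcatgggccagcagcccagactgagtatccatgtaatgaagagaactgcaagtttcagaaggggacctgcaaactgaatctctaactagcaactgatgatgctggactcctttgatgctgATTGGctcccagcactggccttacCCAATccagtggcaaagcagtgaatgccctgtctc
C1qb: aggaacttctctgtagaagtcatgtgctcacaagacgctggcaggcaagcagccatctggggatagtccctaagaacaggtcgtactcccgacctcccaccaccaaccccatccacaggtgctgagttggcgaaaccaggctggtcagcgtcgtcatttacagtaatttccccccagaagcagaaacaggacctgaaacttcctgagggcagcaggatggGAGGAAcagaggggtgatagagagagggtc
Ctss: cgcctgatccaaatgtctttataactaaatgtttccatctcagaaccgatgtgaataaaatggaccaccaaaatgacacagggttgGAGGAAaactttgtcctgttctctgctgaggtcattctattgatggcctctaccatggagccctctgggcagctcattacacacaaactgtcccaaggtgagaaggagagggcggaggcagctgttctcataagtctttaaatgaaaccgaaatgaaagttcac

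The Y box letters ATTGG stood 48 to 44 bases before the start of H2-Aa and 59 to 55 bases before that of H2-Eb1. H2-Eb1 also held CCAAT, the other orientation, at 35 to 31 bases before its start. The PU.1 core stood 30 to 25 bases before the start of C1qb and 164 to 159 bases before that of Ctss. Across all 32851 such windows of the RefSeq table, 33.8% hold CCAAT on either strand and 23.3% hold GAGGAA on either strand. Neither motif contains the other. Windows were matched for 24 of the 33 macrophage and microglia members, with 30 windows in all, of which 15 held GAGGAA and 10 held CCAAT. Of the 4 MHC class II genes 2 were matched, with 1 window each, and both windows held CCAAT and neither held GAGGAA. A match of letters is a description and not a measured binding site. The C1q genes are neighbors on chromosome 4 (C1qb 136880129 to 136886187, C1qc 136889804 to 136893065, C1qa 136895917 to 136898803), and H2-Ab1, H2-Aa and H2-Eb1 lie within 34257689 to 34316674 of chromosome 17.

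**Figure D1:**
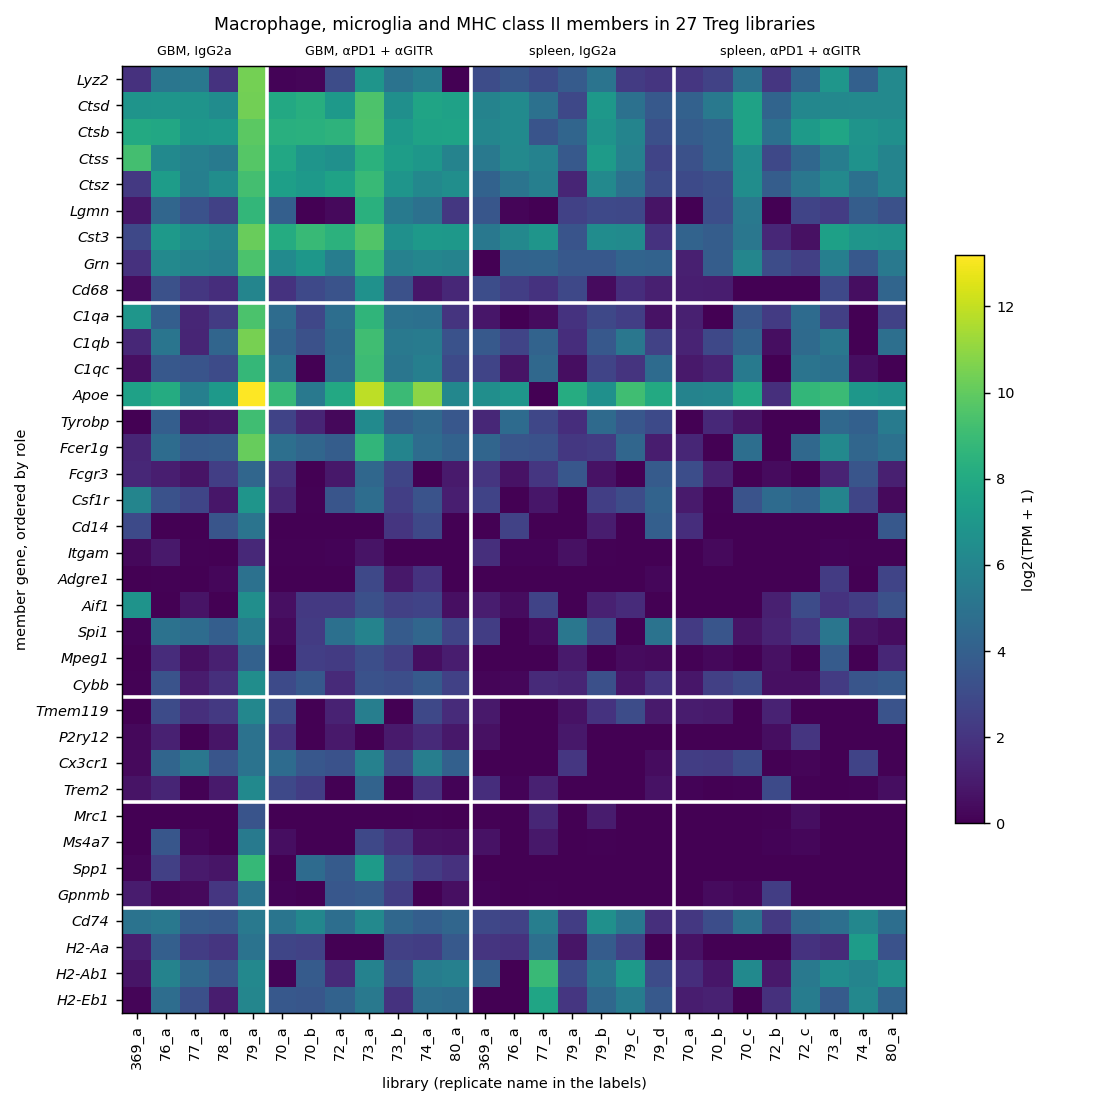
Level of 36 members, as log2(TPM + 1), in each of the 27 libraries, with libraries in columns by group and genes in rows by role (white lines part the groups and the roles). The column of library tumor_79_a after IgG2a is bright from Lyz2 down to Gpnmb, that of library tumor_73_a after αPD1 + αGITR follows it, and H2-Ab1 and H2-Eb1 peak in library spleen_77_a and H2-Aa in spleen_74_a.

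Most of the macrophage RNA was in 2 GBM libraries, 1 in each treatment group. The 33 macrophage and microglia members summed to 22120 TPM in library tumor_79_a (IgG2a) and to 10174 TPM in library tumor_73_a (αPD1 + αGITR), or 2.21% and 1.02% of all TPM. The other 10 GBM libraries lay between 686 and 3083 TPM, and the 15 splenic libraries between 126 and 1550 TPM. In tumor_79_a 30 of the 33 members were above 10 TPM and none was listed at 0. It exceeded all 10 other GBM libraries in 31 of the 33 members, the exceptions being Aif1 and Cx3cr1. Library tumor_73_a exceeded these 10 in 23 members, 22 of which it shared with tumor_79_a. T cell transcripts were present in both. The 10 T cell and Treg genes summed to 1607 TPM in tumor_79_a and 1840 TPM in tumor_73_a, against 1496 to 3297 TPM in the other 10. The sum of tumor_73_a was the lowest of its group. Cd4, Lck, Il2ra, Ctla4 and Ikzf2 were lowest of all GBM libraries in tumor_79_a, at 62.5, 162, 84.25, 72.75 and 62.2 TPM. Cd3e was highest of its group there, at 501 TPM, and Cd3d, Cd3g and Cd2 were not lowest. Foxp3 was lowest of all GBM libraries in tumor_79_a, at 116 TPM, and lowest of its group in tumor_73_a, at 165 TPM.

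The profiles of these 2 libraries differed from each other. Where both were above 0, the ratio of tumor_79_a to tumor_73_a had a median of 2.25 over the members and ran from 0.58 for Cx3cr1 to 11.8 for Lyz2. Cd14, P2ry12 and Mrc1 were above 0 in tumor_79_a and listed at 0 in tumor_73_a. Markers of further cell types were not alike either. Hemoglobin and other erythroid genes summed to 2371 TPM in tumor_79_a and 53.7 TPM in tumor_73_a, neural and glial genes to 196 and 58.1 TPM, and 10 neutrophil genes to 94.9 TPM, the highest of the 27 libraries, and 8.88 TPM. Mbp, the myelin basic protein of oligodendrocytes, was at 131 TPM in tumor_79_a and 3.40 TPM in tumor_73_a, and at 2.87 to 80.8 TPM in the other 10 GBM libraries. The part of other cells in these values was not tested, and results that rest on either library are given with and without it.

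**Figure D2:**
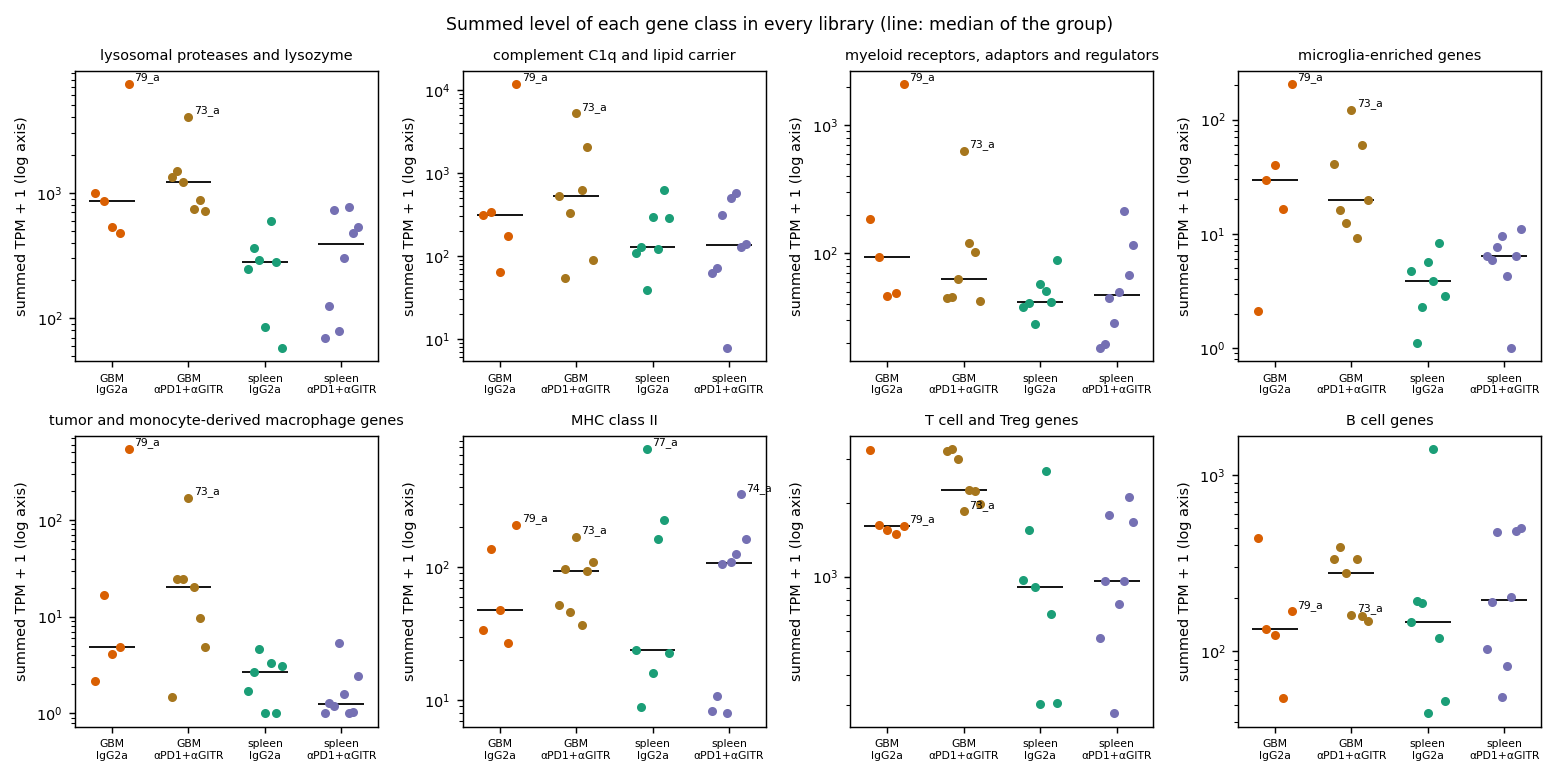
Summed TPM plus 1 of each class of members, and of T cell and B cell genes, in every library by group on a log axis, with a line at the group's median. Libraries tumor_79_a and tumor_73_a lead the GBM groups in the 5 macrophage and microglia classes but not in T cell genes, and libraries spleen_77_a and spleen_74_a lead their groups in MHC class II.

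Ctsd, Ctsb, Ctss and Apoe were above 10 TPM in all 12 GBM libraries, and they were the only macrophage and microglia members to be so. Lyz2, the lysozyme of macrophages and neutrophils, was low in most GBM libraries. It was at 2.70, 35.5, 38.4, 2.87 and 1374 TPM in libraries tumor_369_a, tumor_76_a, tumor_77_a, tumor_78_a and tumor_79_a after IgG2a, and at 0.00 to 117 TPM (median 7.45, n = 7) after αPD1 + αGITR. In the spleen it was at 3.09 to 32.8 TPM (median 7.40, n = 7) after IgG2a and 3.19 to 120 TPM (median 16.9, n = 8) after αPD1 + αGITR. Apart from tumor_79_a, Lyz2 in GBM libraries thus lay within the range of the spleen or below it, and tumor_79_a held 94.5% of the summed TPM of its group.

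Ctsd, an aspartic protease of the lysosome, was at 112, 114, 112, 85.3 and 1319 TPM in the same 5 GBM libraries after IgG2a and at 93.0 to 726 TPM (median 206) after αPD1 + αGITR. Splenic values were 6.17 to 129 TPM (median 29.4) and 16.4 to 193 TPM (median 69.5). The 4 GBM libraries other than tumor_79_a were close to each other and inside the upper splenic range. Ctss, a cysteine protease that trims the MHC class II invariant chain, was at 601, 76.7, 53.0, 41.6 and 838 TPM after IgG2a and at 59.2 to 336 TPM (median 125) after αPD1 + αGITR in GBM. In the spleen it ran from 5.54 to 149 TPM (median 55.4) and from 6.24 to 106 TPM (median 33.6). Library tumor_369_a also stood above the others for Ctss, although Ctsz, Cst3 and Grn were at 3.58, 6.23 and 2.68 TPM in it.

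Ctsb, a cysteine protease, was at 260, 242, 125, 140 and 923 TPM in GBM after IgG2a and at 8.26 to 107 TPM (median 59.7) in the spleen, and these groups did not overlap. Over the 10 GBM libraries other than tumor_79_a and tumor_73_a, medians were 220 TPM for Ctsb, 131 for Cst3, the cysteine protease inhibitor cystatin C, 127 for Ctsd, 106 for Ctss, 102 for Ctsz and 58.5 for Grn, the growth factor progranulin. Lgmn and Cd68, a protease and a membrane protein that are abundant in macrophage lysosomes, were far lower, with medians of 6.94 and 3.09 TPM. In tumor_79_a and tumor_73_a they reached 429 and 326 TPM (Lgmn) and 63.5 and 101 TPM (Cd68). Other lysosomal genes were also present in most GBM libraries, for example Psap at 9.35 to 439 TPM and Npc2 at 25.4 to 162 TPM.

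C1q and Apoe were higher in tumor_79_a and tumor_73_a than in any other GBM library, and over those other 10 the C1q genes had medians of 10.5 to 19.3 TPM and Apoe one of 218 TPM. C1qa, C1qb and C1qc encode the 3 chains of C1q, which starts the classical complement pathway. C1qa was at 122, 14.6, 1.65, 3.84 and 696 TPM in GBM after IgG2a and at 2.90 to 400 TPM (median 26.4) after αPD1 + αGITR, against 0.00 to 6.18 TPM (median 0.73) and 0.00 to 23.1 TPM (median 4.29) in the spleen. C1qb was at 1.79, 33.7, 1.56, 18.7 and 1428 TPM and at 8.68 to 566 TPM (median 21.4) in GBM, against 2.26 to 36.9 TPM (median 11.3) and 0.00 to 36.0 TPM (median 11.5) in the spleen. C1qc was at 0.43, 11.4, 9.55, 6.94 and 443 TPM and at 0.00 to 523 TPM (median 30.03) in GBM, against 0.40 to 23.7 TPM (median 5.44) and 0.00 to 42.0 TPM (median 1.19) in the spleen. The 3 chains were high together in tumor_79_a and tumor_73_a, whereas tumor_369_a had C1qa at 122 TPM with C1qb and C1qc below 2 TPM. Library tumor_79_a held 83.0%, 96.2% and 94.0% of its group's summed TPM of C1qa, C1qb and C1qc, and tumor_73_a held 77.3% to 80.1% of that of its own group.

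Apoe, the lipid carrier made by macrophages, microglia and astrocytes, was the most abundant member in tumor_79_a, tumor_73_a and tumor_74_a. Over the 10 GBM libraries other than tumor_79_a and tumor_73_a, its median of 218 TPM was close to that of Ctsb, 220 TPM. Apoe was at 185, 278, 50.0, 141 and 9304 TPM in GBM after IgG2a and at 38.9 to 3723 TPM (median 459) after αPD1 + αGITR. In tumor_79_a it was the 7th and in tumor_73_a the 13th most abundant of all features. Library tumor_74_a came next with 1921 TPM. Splenic Treg libraries also held Apoe, at 0.00 to 572 TPM (median 120) after IgG2a and 2.46 to 502 TPM (median 117) after αPD1 + αGITR. Outside tumor_79_a, tumor_73_a and tumor_74_a the GBM values overlapped those of the spleen.

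Receptors, adaptors and regulators of myeloid cells were low in most GBM libraries, and only Fcer1g and Spi1 of these 11 members had a median above 10 TPM in the 10 other than tumor_79_a and tumor_73_a. Tyrobp, the adaptor DAP12 of activating myeloid receptors, was at 0.00, 14.5, 0.58, 0.77 and 561 TPM in GBM after IgG2a and at 0.23 to 78.96 TPM (median 10.8) after αPD1 + αGITR. Its splenic values were 1.77 to 23.8 TPM (median 6.89) and 0.00 to 44.1 TPM (median 1.27), so that only tumor_79_a and tumor_73_a lay above the spleen. Csf1r, the receptor of the macrophage growth factor CSF-1, was at 62.7, 9.06, 5.73, 0.72 and 117 TPM in GBM after IgG2a. It was at 0.07 to 25.5 TPM (median 4.53) in GBM after αPD1 + αGITR, at 0.00 to 17.1 TPM (median 4.38) in the spleen after IgG2a and at 0.06 to 60.4 TPM (median 7.50) there after αPD1 + αGITR. The groups overlapped, and Csf1r in library spleen_73_a (60.4 TPM) was above that in library tumor_73_a (25.5 TPM).

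The remaining receptors and regulators can be given by range. Fcer1g, the common chain of Fc receptors, reached 1100 TPM in tumor_79_a and 410 TPM in tumor_73_a and stayed at 1.58 to 60.4 TPM in the other GBM libraries. Spi1, which encodes PU.1, was at 46.1 and 59.0 TPM in these libraries and at 0.08 to 30.6 TPM in the others. Aif1, the microglial and macrophage protein Iba1, was highest in tumor_369_a (109 TPM), followed by tumor_79_a (89.7 TPM). Itgam, which encodes CD11b, was at most 1.86 TPM in GBM and at most 2.38 TPM in the spleen. Adgre1, which encodes F4/80, was at 29.6 TPM in tumor_79_a and 6.36 TPM in tumor_73_a and at or below 2.84 TPM in the other GBM libraries. Fcgr3, Cd14, Mpeg1 and Cybb were at 19.8, 32.8, 15.9 and 88.5 TPM in tumor_79_a and at 20.3, 0.00, 7.91 and 9.12 TPM in tumor_73_a, and the other 10 GBM libraries stayed at or below 5.86, 10.1, 4.55 and 12.2 TPM.

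Among microglia-enriched genes, Cx3cr1 was the only one with a median above 10 TPM in the 10 GBM libraries other than tumor_79_a and tumor_73_a. Tmem119, a membrane protein that marks microglia, was at 0.00, 6.93, 2.45, 3.63 and 66.6 TPM in GBM after IgG2a and at 0.00 to 48.8 TPM (median 2.09) after αPD1 + αGITR. Its splenic values were 0.00 to 7.24 TPM (median 0.88) and 0.00 to 9.54 TPM (median 0.47). Outside tumor_79_a and tumor_73_a the GBM values therefore lay within those of the spleen. P2ry12, the purinergic receptor of resting microglia, was at 0.22, 1.32, 0.00, 0.70 and 29.9 TPM in GBM after IgG2a and at 0.00 to 2.85 TPM (median 0.85) after αPD1 + αGITR, and at most 0.83 and 3.10 TPM in the splenic groups. Only tumor_79_a stood out for P2ry12, and tumor_73_a, which had Tmem119, listed it at 0. Trem2, a lipid receptor of microglia and macrophages that signals through DAP12, was at 76.8 TPM in tumor_79_a, 17.3 TPM in tumor_73_a and 0.02 to 6.55 TPM in the other GBM libraries.

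Cx3cr1, the fractalkine receptor, is carried by microglia, by monocytes and by some effector T cells. It was at 0.24, 18.8, 36.2, 10.2 and 31.2 TPM in GBM after IgG2a and at 7.28 to 54.2 TPM (median 15.7) after αPD1 + αGITR. In the spleen it was at 0.00 to 3.21 TPM (median 0.00) and 0.00 to 6.65 TPM (median 2.04). The groups given αPD1 + αGITR did not overlap, and after IgG2a only library tumor_369_a fell among the splenic values. Both Cx3cr1 and Tmem119 were near 0 in tumor_369_a and high in tumor_73_a, while tumor_77_a and tumor_74_a had 36.2 and 48.5 TPM of Cx3cr1 with 2.45 and 6.33 TPM of Tmem119. Library tumor_79_a held 32.3% of its group's Cx3cr1 but 83.7% of its Tmem119.

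Genes of tumor-associated and monocyte-derived macrophages had medians below 10 TPM in the 10 GBM libraries other than tumor_79_a and tumor_73_a. Mrc1, the mannose receptor CD206, was at 0.03, 0.00, 0.00, 0.00 and 9.62 TPM in GBM after IgG2a and at most 0.04 TPM after αPD1 + αGITR, with splenic values of at most 1.71 and 0.38 TPM. It was thus below 10 TPM in every library. Ms4a7, a membrane protein of macrophages, was at 42.5 TPM in tumor_79_a and 10.7 TPM in tumor_76_a and at most 6.25 TPM in the other GBM libraries. Gpnmb, a glycoprotein of lipid-laden macrophages, was at 1.03, 0.19, 0.26, 3.25 and 32.1 TPM in GBM after IgG2a and at most 0.09 TPM in the spleen after IgG2a, and these groups did not overlap. After αPD1 + αGITR it reached 12.6 TPM in GBM and 4.22 TPM in the spleen.

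Spp1, which encodes the secreted protein osteopontin of macrophages and activated T cells, was listed at 0 throughout the spleen. It was at 0.12, 4.71, 0.97, 0.66 and 450 TPM in GBM after IgG2a and at 0.00 to 146 TPM (median 7.73) after αPD1 + αGITR. All 15 splenic libraries listed it at 0, as did 1 GBM library, tumor_70_a. An entry of 0 may also be a failed estimate, so no fold change is given for Spp1.

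**Figure D3:**
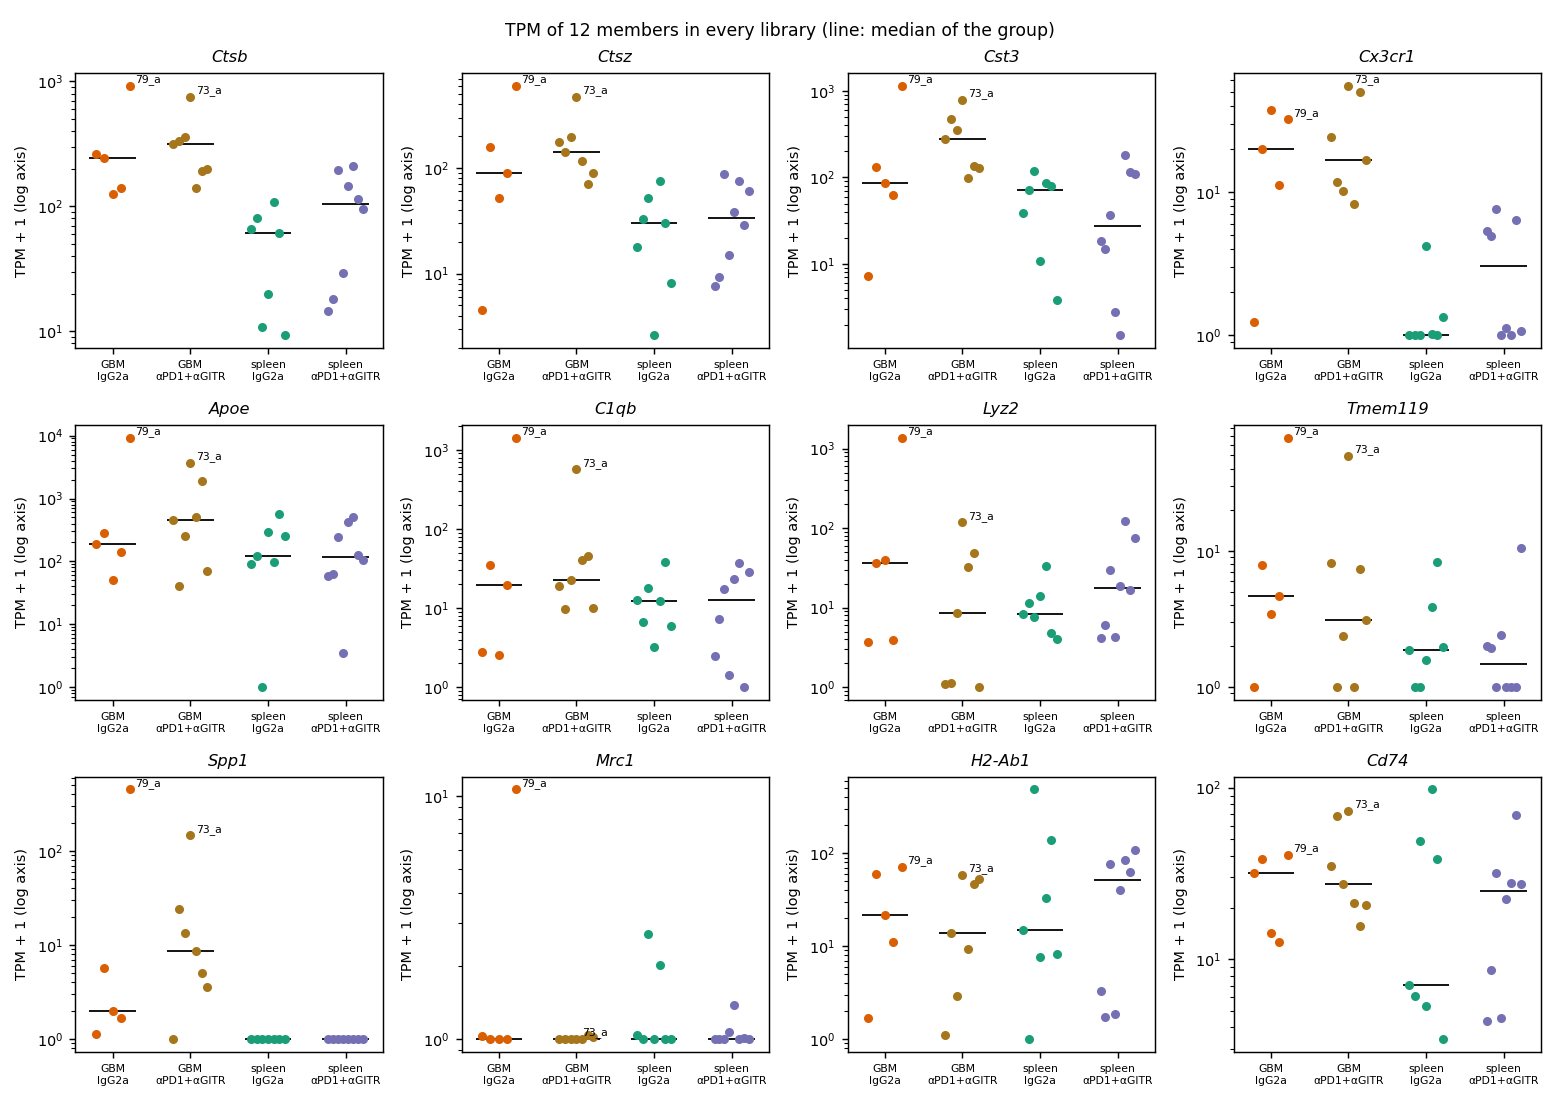
TPM plus 1 of 12 members in every library by group on a log axis, with a line at the group's median. Ctsb, Ctsz, Cst3 and Cx3cr1 are raised over many GBM libraries, while Apoe, C1qb, Lyz2, Tmem119, Spp1 and Mrc1 have tumor_79_a as the top point, and H2-Ab1 peaks at 486 TPM in a splenic library.

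MHC class II transcripts reached their highest levels in splenic Treg libraries. The 4 members summed to 25.8 to 207 TPM in GBM after IgG2a, 36.0 to 168 TPM in GBM after αPD1 + αGITR, 7.84 to 774 TPM in the spleen after IgG2a and 6.98 to 354 TPM in the spleen after αPD1 + αGITR. The highest sums were those of libraries spleen_77_a (774 TPM) and spleen_74_a (354 TPM), whose 33 macrophage and microglia members summed to only 361 and 677 TPM. Libraries tumor_79_a and tumor_73_a had 207 and 168 TPM. Cd74, the invariant chain, was at 31.0, 37.5, 13.1, 11.6 and 39.4 TPM in GBM after IgG2a, 14.5 to 72 TPM (median 26.3) in GBM after αPD1 + αGITR, 2.42 to 96.7 TPM (median 6.10) in the spleen after IgG2a and 3.34 to 68.4 TPM (median 23.9) there after αPD1 + αGITR. It was above 10 TPM in every GBM library and in 8 of the 15 splenic libraries.

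The chains of the MHC class II dimers varied more. H2-Ab1, the beta chain of I-A, was at 0.69, 58.2, 20.6, 10.1 and 70.7 TPM in GBM after IgG2a and at 0.11 to 57.3 TPM (median 12.8) after αPD1 + αGITR. It was at 0.00 to 486 TPM (median 13.8) and 0.73 to 109 TPM (median 50.6) in the splenic groups, so that splenic libraries held both the lowest and the highest values. H2-Aa, the alpha chain of I-A, was at 1.17, 15.1, 4.26, 3.07 and 31.9 TPM and at 0.00 to 11.9 TPM (median 4.64) in GBM, and at 0.00 to 27.5 TPM (median 3.04) and 0.00 to 153 TPM (median 1.29) in the spleen. The value of 153 TPM belonged to library spleen_74_a, where H2-Ab1 was lower (61.5 TPM), and library spleen_77_a had the reverse, 27.5 TPM of H2-Aa with 486 TPM of H2-Ab1. H2-Eb1, the beta chain of I-E, was at 0.15, 25.5, 8.40, 1.09 and 65.4 TPM and at 2.77 to 38.6 TPM (median 16.9) in GBM, and at 0.00 to 213 TPM (median 12.03) and 0.00 to 71.2 TPM (median 7.57) in the spleen.

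Markers of the other cells that make MHC class II were given beside these values. The 12 B cell genes summed to 187 TPM in library spleen_77_a and 482 TPM in spleen_74_a, against 43.6 to 1398 TPM over all splenic libraries. Ighm, the heavy chain of IgM, made up 173 and 363 TPM of these sums, and it was also at 45.2 to 436 TPM in GBM libraries, where Cd79a was at most 0.79 TPM. In spleen_77_a the B cell markers Ms4a1, Pax5 and Cd79b were at 0.13, 0.69 and 0.27 TPM, while spleen_74_a was the highest of its group for these 3, at 6.25, 5.42 and 19.2 TPM. The highest B cell sum (1398 TPM) was that of library spleen_79_b, which also had the highest Cd74 (96.7 TPM) but 32.3 TPM of H2-Ab1. The 12 dendritic cell genes summed to 244 and 193 TPM in spleen_77_a and spleen_74_a, inside the splenic range of 48.2 to 328 TPM. The part of these cells in the MHC class II values was not tested.

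**Figure D4:**
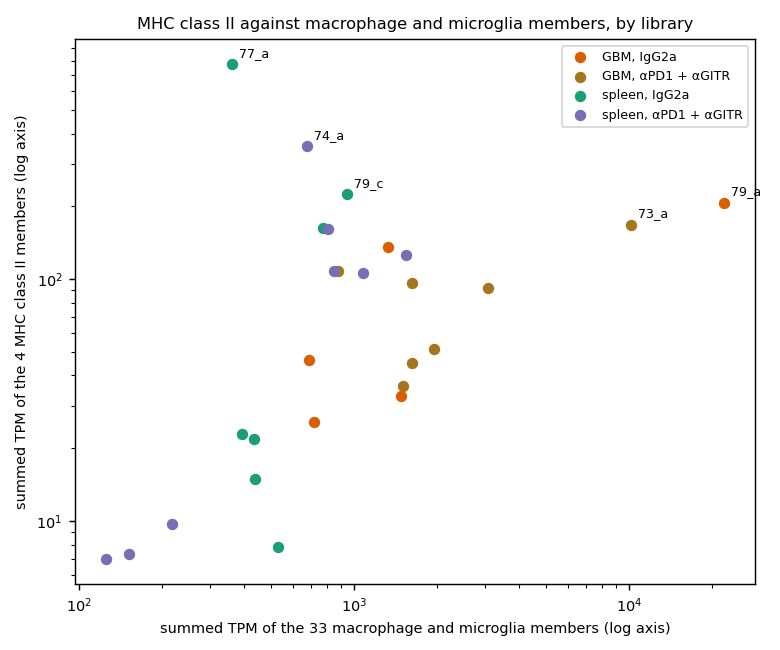
Summed TPM of the 4 MHC class II members against that of the 33 macrophage and microglia members in each library, on log axes, with groups in colors. Libraries tumor_79_a and tumor_73_a lie far to the right (22120 and 10174 TPM) but below libraries spleen_77_a and spleen_74_a on the MHC class II axis (774 and 354 TPM).

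The comparison of tissues asks which members differ between GBM and splenic Treg cells under the same treatment. Differences were tested with limma on log2(TPM + 1), on which a change of a low gene is understated, in features whose mean exceeded 10 TPM in either group. After IgG2a 28 of the 37 members passed this filter, and none of them differed at an adjusted p under 0.05, where 0.569% of the 7380 features tested did. At an unadjusted p under 0.05 and a change over 2-fold, a looser rule, 7 members were higher in GBM and none was lower. This rule called 7.63% of all features as higher and 9.93% in either direction. The median log2 difference was 1.66 over the members tested and 0.48 over all features, and members had entered the test in part through high GBM values. The 7 were Ctsb, Ctsd, Ctss, Grn, C1qa, Cx3cr1 and Spp1. C1qa, Cx3cr1 and Spp1 had entered only through their GBM means, Spp1 against splenic libraries that all list it at 0, which leaves 6 without it. With means above 10 TPM in both groups, Ctsb, Ctsd, Ctss and Grn were the 4 of 14 members that passed this rule, as did 6.55% of features. In the same comparison all 3 neural and glial genes tested and the 1 neutrophil gene tested were higher at this rule (median log2 differences of 2.34 and 3.14), and all 5 erythroid genes tested were lower (median -3.80). Their part in the members' differences was not tested.

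Ctsb had means of 338 ± 333 TPM (SD, n = 5) for GBM and 49.7 ± 38.1 TPM (n = 7) for spleen and was higher by 2.84 ± 0.81 (log2, SE; limma adjusted p = 0.106, exact permutation p = 0.00505). Its groups did not overlap, nor did those of Spp1 and Gpnmb, as for 1.25% of features tested in this direction; Gpnmb was below the filter. Cx3cr1 was higher by 3.30 ± 1.00 (limma adjusted p = 0.144), with 4 of 5 GBM libraries above all splenic ones. C1qa was higher by 3.51 ± 1.10 (limma adjusted p = 0.17), with 3 of 5 above. Ctsd, Grn and Ctss were higher by 2.37 ± 0.85, 2.39 ± 0.99 and 2.02 ± 0.89, with limma adjusted p of 0.285, 0.401 and 0.431. Without tumor_79_a, 19 members were tested and 3, Ctsb, Cx3cr1 and C1qa, remained at the unadjusted rule, at 2.37 ± 0.85, 2.97 ± 1.09 and 2.35 ± 1.07. That fit called 7.9% of all features, and the median difference was 0.88 over the members and 0.36 over all features. Without tumor_369_a, 14 of 29 members and 11.8% of features passed that rule. At least C1qa, C1qc, Cx3cr1, Spp1 and Tmem119 of these 14 entered only through their GBM means. Cx3cr1 also passed the adjusted threshold, with 0.547% of features. Without tumor_78_a, 11 of 28 members and 10.4% of features passed the unadjusted rule.

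After αPD1 + αGITR 23 members were tested, and 9 were higher in GBM at an adjusted p under 0.05 and none lower. The same threshold called 15.8% of the 7506 features as higher and 17.5% in either direction. They were 6 lysosomal genes (Ctsz, Cst3, Grn, Ctsd, Ctss, Ctsb), C1qa, Cx3cr1 and Spp1. C1qa, Cx3cr1 and Spp1 again entered the test only through their GBM means, and the call of Spp1 is against a group at 0, which leaves 8 without it. With means above 10 TPM in both groups 15 members were tested and the 6 lysosomal genes passed the adjusted threshold, as did 11.4% of features. At the unadjusted rule 13 members were higher, adding C1qb, C1qc, Apoe and Fcer1g, where 33.9% of all features were higher and 40.2% called in either direction. The median log2 difference was 1.95 over the members tested and 0.95 over all features. The 2 medians fell to 1.27 and 0.27 with TMM-type factors and to 1.38 and 0.15 with quantile normalization, and 5 and 6 members, all higher in GBM, then passed the adjusted threshold with 8.05% and 14.6% of features. The calls of Grn, Ctsd, Ctsb and C1qa were lost with TMM-type factors, and those of Cx3cr1, C1qa and Spp1 with quantile normalization.

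Cst3 was higher by 3.41 ± 0.85 (log2, SE; limma adjusted p = 0.012) and Ctsz by 2.38 ± 0.59 (limma adjusted p = 0.0116), the latter with 6 of 7 GBM libraries above all splenic ones. Grn, Ctss, Ctsd and Ctsb were higher by 2.58 ± 0.68, 2.22 ± 0.60, 2.05 ± 0.55 and 2.05 ± 0.61, with limma adjusted p of 0.0168, 0.0185, 0.0177 and 0.0276. Cx3cr1, whose spleen mean was under the filter, had means of 24.1 ± 19.4 TPM (SD, n = 7) for GBM and 2.56 ± 2.80 TPM (n = 8) for spleen. Its difference was 2.96 ± 0.68 (log2, SE; limma adjusted p = 0.00756, exact permutation p = 0.000311), and its groups did not overlap, as for 2.96% of features in this direction. That of C1qa, also under the filter in the spleen, was 2.59 ± 0.84 (limma adjusted p = 0.0381), a call that was lost under 8 of 10 other settings and in 9 of 15 fits with 1 library left out (limma adjusted p up to 0.224). Spp1 was listed at 0 in all 8 splenic libraries and above 0 in 6 of 7 GBM libraries, and no p is given for it because the zeros may be failed estimates. C1qb, C1qc, Apoe and Fcer1g had differences of 2.12 ± 0.88, 2.38 ± 1.07, 1.95 ± 0.94 and 1.94 ± 0.90 and limma adjusted p of 0.0829, 0.102, 0.123 and 0.111.

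Without tumor_73_a, 6 of 21 members tested passed the adjusted threshold, namely Cst3, Cx3cr1, Ctss, Ctsd, Grn and Ctsz, where 9.38% of all features did. The differences were then 3.14 ± 0.89 for Cst3 and 2.72 ± 0.71 for Cx3cr1, and C1qa, at 1.92 ± 0.77, had a limma adjusted p of 0.0918. The call of Ctsb was lost without tumor_70_a, tumor_70_b, tumor_72_a, tumor_73_a, spleen_70_a or spleen_70_b, and that of C1qa without tumor_70_a, tumor_72_a, tumor_73_a, tumor_73_b, tumor_74_a, spleen_70_a, spleen_70_b, spleen_72_b or spleen_74_a. C1qb, C1qc, Apoe and Fcer1g fell out of the unadjusted rule, which 8 of the 21 members and 34.8% of all features passed without tumor_73_a. The T cell and Treg list was higher in the same comparison, with 6 of 10 genes past the adjusted threshold, and erythroid genes were lower, with 5 of 5 tested past it. Erythroid sums were 0.30 to 201 TPM in GBM and 25.4 to 28413 TPM in the spleen after αPD1 + αGITR, and TPM of a library sum to a fixed total. The part of that in the members' differences was not tested.

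MHC class II genes did not differ between tissues by either rule in either treatment, all 4 being tested. After IgG2a their median log2 difference was 0.18 (2 of 4 above 0), and after αPD1 + αGITR it was 0.53 (3 of 4 above 0), below the all-feature medians of 0.48 and 0.95. The counts of other lists that follow stand beside 7.63% of all features higher after IgG2a and 33.9% after αPD1 + αGITR at the unadjusted rule. Of the other MHC class II pathway genes, such as Ifi30, Rfxap, H2-DMa and Rfx5, 5 and 4 of 15 were tested, and 1 in each comparison was higher at the unadjusted rule. Of 14 other lysosomal genes, all tested, such as Psap, Ctsa and Npc2, 3 and 6 were higher at that rule and 1 and 0 lower. Of 13 other microglia genes, such as Selplg, Sparc and Tgfbr1, 2 of 7 and 3 of 3 tested were higher at that rule. Selplg, a selectin ligand that T cells carry too, made up much of that list's sum, at 326 to 893 TPM in GBM. Of 31 other monocyte and macrophage genes, such as Pld4, Ms4a6c, Ly6c2 and Ms4a6d, 3 of 12 and 2 of 4 tested were higher at that rule. The 2 comparisons of tissues share no libraries.

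**Figure D5:**
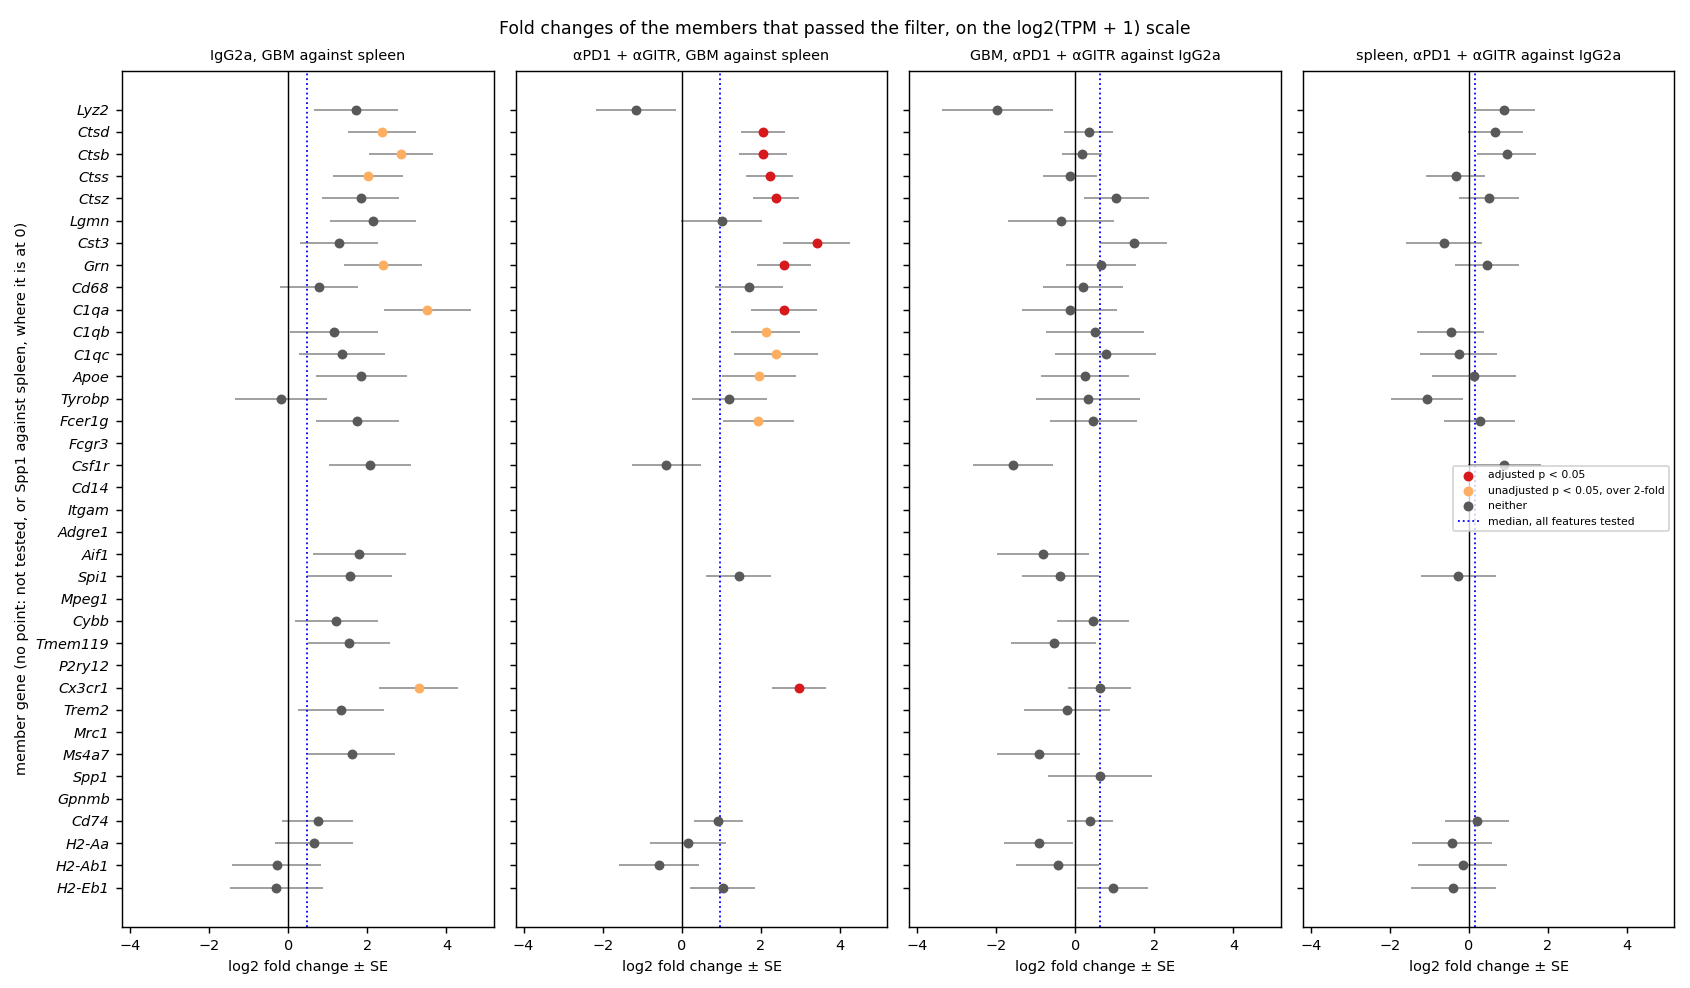
Log2 fold change with its SE of each member that passed the filter, in the comparisons of tissues (2 panels on the left) and of treatments (2 panels on the right), with colors for the call and a dotted line at the median of all features tested. Spp1 is left out of the panels on the left because splenic libraries list it at 0. After αPD1 + αGITR 8 of the members shown pass the adjusted threshold in GBM against spleen, where 15.8% of all features are higher at it, and C1qa and Cx3cr1 among them entered only through their GBM means. None passes it in the other panels, and none of the MHC class II genes at the foot is called.

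The comparison of treatments asks whether αPD1 + αGITR changed these transcripts within a tissue. In GBM Treg cells 28 members were tested and none passed either rule, while the unadjusted rule called 21.7% of the 7848 features and the adjusted one 0%. No member had an unadjusted limma p under 0.05, against 22.3% of features. No member separated the groups, as 1.77% of features did upward and 0.42% downward. The median log2 difference was 0.22 over the members and 0.62 over all features, and these were -0.40 and 0.05 with TMM-type factors. Without tumor_79_a they were 1.02 and 0.80. The lowest p were those of Cst3 at 1.48 ± 0.85 (limma adjusted p = 0.295), Csf1r at -1.57 ± 1.01 (limma adjusted p = 0.346), Lyz2 at -1.97 ± 1.40 (limma adjusted p = 0.392) and Ctsz at 1.04 ± 0.82 (limma adjusted p = 0.44). Exact permutation p for these 4 were 0.205, 0.215, 0.308 and 0.374. Without tumor_79_a Lyz2 was at -0.60 ± 1.28, and Cst3, Ctsd, Fcer1g and Ctsz were higher after αPD1 + αGITR at the unadjusted rule, which then called 26.6% of features. Without both tumor_79_a and tumor_73_a Cst3 alone passed that rule, at 2.13 ± 0.72 (limma adjusted p = 0.175), where 22.9% of features did. Without tumor_78_a Csf1r alone passed it, with 22.8% of features.

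In splenic Treg cells 18 members were tested and none passed either rule, where the unadjusted rule called 2.53% of the 6634 features. No member had an unadjusted limma p under 0.05. The lowest p were those of Ctsb (0.96 ± 0.75), Tyrobp (-1.07 ± 0.91), Lyz2 (0.90 ± 0.78) and Csf1r (0.90 ± 0.93), each with a limma adjusted p of 1. The interaction of tissue and treatment was tested for 28 members, and none passed either rule, where the unadjusted rule called 12.2% of 8687 features. No member had an unadjusted limma p under 0.05 there. The lowest p belonged to Lyz2 (-2.86 ± 1.60), Csf1r (-2.46 ± 1.38), Cst3 (2.12 ± 1.42) and Aif1 (-1.30 ± 1.31), with limma adjusted p of 0.48, 0.483, 0.571 and 0.724. Without tumor_79_a the interaction value was -1.49 ± 1.47 for Lyz2 and 3.03 ± 1.39 for Cst3. With 1 library left out, Lyz2 and Csf1r passed the unadjusted rule without tumor_78_a or tumor_73_a and Cst3 and Tyrobp without tumor_79_a, and these 3 fits called 10.9% to 13.6% of all features. Without tumor_369_a Lyz2 passed it with 7.55% of features, and 1 member each passed it without tumor_74_a, spleen_79_d, spleen_70_b or spleen_80_a, with 10.6% to 13.9% of features.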

How the data were processed

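The authors made the libraries by Smart-Seq2, used TopHat for alignment (mm10) and RSEM for TPM; the tool versions and annotation are not given in the sources used here. The table deposited by the authors holds TPM plus 1, and writes H2-Aa as H2.Aa, so 1 was subtracted, and each library then sums to 1000000 TPM over all features, ribosomal and repeat-derived ones included. Of 28 samples described, 27 were used, since 1 column of values has no sample name and was not used. Read depth is unknown, and only the spread among replicates gives the precision.

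Groups follow the labels. log2(TPM + 1) was fitted with limma 3.58.1 in R 4.3.3 (eBayes with trend) on the groups compared, for features whose mean exceeded 10 TPM in any group compared, with two-sided p-values adjusted by the Benjamini-Hochberg method over all features tested. Single genes were also compared by two-sided exact permutation tests, whose smallest p are 0.00126 (5 against 7 libraries) and 0.000155 (7 against 8). Fits were tested on simulated data. Positions are from GENCODE M21 (GRCm38, the assembly of mm10). A set panel of 19 members was described library by library, and fold changes were given for tested members past the unadjusted rule or without overlap, or else for the 4 of lowest p. Up to 4 genes of each other list were named, by highest mean TPM, and genes of the T cell list and others outside this rule were named after their values were seen. Values of 1 member and of some genes of other lists are not reported here, though sums and counts in the comparisons include them. The members and lists were chosen with earlier results of these data known. Alternatives were other pseudocounts, filters, scalings and weights, a covariate, a block and leaving out libraries.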

Additional observations from a re-analysis of the deposited data

Results flagged for a closer look

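Single libraries stood apart from their group, by the gap to the nearest library relative to the group's range on log2(TPM + 1), in 25 of 142 series of values (1 gene in 1 group). The cutoff is set to flag about 1 in 20 series of normally spread values. Series with many zeros are not so spread, and genes of 1 library are not independent. That rate therefore cannot be set against the 25. Of the 25, 10 were high values of the same 2 GBM libraries. In tumor_79_a after IgG2a they were Ctsd (1319 TPM), Adgre1 (29.6 TPM), P2ry12 (29.9 TPM), Trem2 (76.8 TPM), Mrc1 (9.62 TPM) and Spp1 (450 TPM). In tumor_73_a after αPD1 + αGITR they were Grn (432 TPM), C1qb (566 TPM), Fcer1g (410 TPM) and Itgam (0.64 TPM).

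In splenic Treg cells after IgG2a, Itgam was apart in spleen_369_a (2.38 TPM), Mpeg1 and Cx3cr1 in spleen_79_a (0.95 and 3.21 TPM) and Adgre1 in spleen_79_d (0.17 TPM), each as the highest value. Grn in spleen_369_a and Apoe in spleen_77_a were apart as the lowest, both listed at 0 (0.00 TPM). After αPD1 + αGITR, library spleen_80_a was highest for Cd14 (11.6 TPM) and Tmem119 (9.54 TPM), spleen_72_c for P2ry12 (3.10 TPM) and Mrc1 (0.38 TPM), spleen_72_b for Trem2 (6.75 TPM) and Gpnmb (4.22 TPM), spleen_73_a for Mpeg1 (12.8 TPM) and spleen_74_a for H2-Aa (153 TPM), while Apoe was lowest in spleen_72_b (2.46 TPM). Most of these splenic values are below 10 TPM.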

How the results depend on the processing

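Counts of members moved with single choices, and the causes were not tested. For GBM against spleen after αPD1 + αGITR, the 9 members past the adjusted threshold (17.5% of all features) became 1 (Cx3cr1) with no filter on low values, where more features are tested (0.6%), and 5 with TMM-type factors (8.05%). The 13 past the unadjusted rule (40.2% of features) became 8 with quantile normalization (27.1%), and 6 to 11 and 8 to 15 members passed the 2 rules with 1 library left out (7.93% to 30.1% and 33.6% to 45.6% of features). For GBM against spleen after IgG2a, 4 members passed the adjusted threshold with library weights (3.55% of features) and 2 with all 4 groups in one fit (1.9%), and 0 to 1 with 1 library left out (0.304% to 1.03%). The 7 past the unadjusted rule (9.93% of features) became 13 with a pseudocount of 10 (8.77%) and 4 when means had to exceed 10 TPM in every group (6.55%), and ran from 3 (without tumor_79_a) to 14 (without tumor_369_a), with 7.9% to 12.7% of features. In GBM after αPD1 + αGITR against IgG2a, 1 member passed the unadjusted rule with library weights (17.8% of features), 1 without both tumor_79_a and tumor_73_a (22.9%), and 0 to 4 with 1 library left out (15% to 26.6%). For the interaction, 1 member passed it with a pseudocount of 10 (10.9% of features) and 1 with TMM-type factors (10.6%), and 0 to 2 with 1 library left out (7.55% to 15.5%). No member passed in the spleen under any alternative run. Numbers in the labels are shared between tissues. Same-numbered libraries had correlations across genes of -0.305 to 0.182, and differently numbered ones of -0.188 to 0.214. Since these ranges overlap, they cannot decide whether label numbers pair the samples, and the main fits used no pairs. With a replicate block on these numbers, 4 members passed the adjusted threshold and 10 the unadjusted rule (9 higher in GBM and 1, Lyz2, lower) after αPD1 + αGITR (6.59% and 30.4% of features), and 0 and 13 after IgG2a (0.0271% and 9.97%). The 4 were Cst3, Cx3cr1, Ctsz and Spp1, so that the calls of Grn, Ctss, Ctsd, Ctsb and C1qa were lost. Of the 32 named differences, 1 turned its direction, the interaction of Aif1, which was 1.10 with library weights. Leaving out both tumor_79_a and tumor_73_a was chosen after seeing the data.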
